A study of Mus musculus with 12 samples.

Results

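The serum amyloid A family was described in the colon and the urinary bladder, with and without deletion of *Yap1* and *Wwtr1* in smooth muscle (Y/T KO and Ctrl). Its members were the 4 genes named *Saa1*, *Saa2*, *Saa3*, and *Saa4* among 54532 genes listed for every library, with each gene found by its name and its TPM summed by gene ID. The family was chosen by its TPM values in the comparison of Y/T KO colon with Ctrl colon, so the colon differences of the members between genotypes are given as a description, without a test. Poly(A)-selected, stranded RNA sequencing was done on 12 libraries from 9 male mice, with 3 libraries in each of Ctrl colon (mice 788, 786, and 787), Y/T KO colon (759, 783, and 780), Ctrl bladder (784, 785, and 788), and Y/T KO bladder (782, 783, and 780), and mice 788, 783, and 780 gave both tissues. All mice carried floxed *Yap1* and *Wwtr1* (the genes for the transcriptional co-activators YAP and TAZ) on a mixed background, were 5 to 7 weeks old, and were given tamoxifen (1 mg a day, 5 daily injections), with tissue taken on day 7 after the first. Y/T KO mice also carried *Myh11*-CreERT2, a recombinase that tamoxifen activates in smooth muscle, whereas Ctrl mice were Cre-negative, and the libraries were made from whole pieces of distal colon and bladder that hold epithelial, immune, and connective tissue cells with intact floxed genes.

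Serum amyloid A proteins are small apolipoproteins of high-density lipoprotein. SAA1 and SAA2 are the classic acute-phase forms, made by the liver and by epithelia, including that of the intestine, when cytokines such as interleukin-1, interleukin-6, tumor necrosis factor, and interleukin-22 act through NF-κB, C/EBP, and STAT3. SAA3 is a second acute-phase form made largely outside the liver, among others by macrophages, adipocytes, and epithelia, and SAA4 is a constitutive form of the liver.

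The members lie in a single cluster on mouse chromosome 7 that spans 42.3 kb (chr7:46711998-46754313, GRCm38). *Saa3* (ENSMUSG00000040026, chr7:46711998-46715700), *Saa4* (ENSMUSG00000040017, chr7:46727998-46732603), and *Saa1* (ENSMUSG00000074115, chr7:46740497-46742980) are read from the minus strand, and *Saa2* (ENSMUSG00000057465, chr7:46751790-46754313) from the plus strand, so that *Saa1* and *Saa2* point away from each other with 8.81 kb between their starts. The third exon of each gene has the same length, 139 bases, and is coding throughout. It is shown because it bears on whether reads of the members can be told apart. Capitals mark bases that differ from *Saa1*, numbering 8 in *Saa2*, 14 in *Saa3*, and 37 in *Saa4* (GENCODE release M21, GRCm38, positions in the order of the lines chr7:46741256-46741394, chr7:46753418-46753556, chr7:46712589-46712727, and chr7:46730037-46730175).
Saa1 exon 3: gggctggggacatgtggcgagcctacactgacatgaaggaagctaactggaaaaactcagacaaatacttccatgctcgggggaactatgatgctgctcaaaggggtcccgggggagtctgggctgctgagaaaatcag
Saa2 exon 3: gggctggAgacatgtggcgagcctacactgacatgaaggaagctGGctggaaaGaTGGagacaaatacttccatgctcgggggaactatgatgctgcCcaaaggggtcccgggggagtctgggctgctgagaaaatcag
Saa3 exon 3: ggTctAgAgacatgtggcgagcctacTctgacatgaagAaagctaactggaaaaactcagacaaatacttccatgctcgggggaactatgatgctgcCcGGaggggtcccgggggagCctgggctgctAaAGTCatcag
Saa4 exon 3: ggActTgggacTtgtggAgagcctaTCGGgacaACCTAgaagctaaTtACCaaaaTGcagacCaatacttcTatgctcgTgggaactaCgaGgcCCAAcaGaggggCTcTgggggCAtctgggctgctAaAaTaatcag
Over the whole coding sequence, *Saa1* was 95.1% identical with *Saa2*, 74.3% with *Saa3*, and 64.4% with *Saa4*. Of the 534 windows of 76 bases in the spliced *Saa1* mRNA, 24 (4.49%) also occurred in *Saa2*, and 0 occurred in *Saa3* or *Saa4*. Reads inside those windows could have been placed on either *Saa1* or *Saa2*, so the small *Saa2* values are uncertain where *Saa1* was very high.

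The promoters of *Saa1*, *Saa2*, and *Saa3* are shown for their sequence, and any link of their motifs to the levels below was not tested. The lines give bases 250 to 51 before the annotated start (RefSeq, GRCm38.p6, 5′ to 3′ on the strand of the gene, chr7:46743031-46743230 minus, chr7:46751583-46751782 plus, and chr7:46715727-46715926 minus). Capitals mark letters that match the NF-κB motif searched (GGG, any 5 bases, CC) or the C/EBP motif (TTNNGNAA) on either strand.
Saa1 promoter: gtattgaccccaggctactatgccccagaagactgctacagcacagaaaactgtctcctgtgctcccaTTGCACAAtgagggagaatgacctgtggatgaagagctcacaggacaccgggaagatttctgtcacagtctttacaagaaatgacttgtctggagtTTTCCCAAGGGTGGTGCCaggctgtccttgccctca
Saa2 promoter: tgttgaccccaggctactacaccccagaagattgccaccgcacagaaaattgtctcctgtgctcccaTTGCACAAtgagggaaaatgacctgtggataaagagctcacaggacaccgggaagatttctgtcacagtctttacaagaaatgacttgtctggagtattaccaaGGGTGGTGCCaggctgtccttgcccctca
Saa3 promoter: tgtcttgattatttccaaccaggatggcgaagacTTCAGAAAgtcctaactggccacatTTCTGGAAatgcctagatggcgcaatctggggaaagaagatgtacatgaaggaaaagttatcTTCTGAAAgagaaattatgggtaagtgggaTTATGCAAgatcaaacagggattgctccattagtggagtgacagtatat
The promoters of *Saa1* and *Saa2* were 94.8% identical over 250 bases, whereas that of *Saa3* was 48.2% identical with *Saa1* and 48.0% with *Saa2*. The single NF-κB match began 78 bases before the start in *Saa1* and 79 bases before it in *Saa2*. In *Saa3* no NF-κB match was found, and C/EBP matches began 216, 191, 129, and 99 bases before the start. *Saa1* had C/EBP matches at 182 and 86 bases, the latter directly next to its NF-κB match, and *Saa2* had a single C/EBP match at 183 bases. *Saa4*, which was listed at 0 in most libraries, also had an NF-κB match, at 210 bases, and C/EBP matches at 245 and 52 bases. Such matches are common, since the NF-κB letters occurred in 45.8% and the C/EBP letters in 36.9% of 32851 promoter windows of the same length. The TATA box letters (TATAAA), held by 12.4% of these windows, were found in none of the 4 members.

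Depth was 2.80 to 3.94 gigabases of aligned sequence per library. *Yap1* was at 98.6 to 110 TPM in Ctrl bladder against 69.4 to 72.1 TPM in Y/T KO bladder (log2 difference -0.54, SE 0.08, adjusted p = 0.0625, limma), and the groups did not overlap. With all 12 libraries in 1 fit its adjusted p was 0.0496, and 0.0504 once the mouse was added as a replicate block (limma), on either side of the threshold. In colon *Yap1* overlapped between Ctrl (45.8 to 54.9 TPM) and Y/T KO (41.3 to 47.0 TPM) (log2 difference -0.17, SE 0.14, adjusted p = 0.697, limma), and *Wwtr1* overlapped between genotypes in both tissues (0.18, SE 0.16, adjusted p = 0.730 in colon and 0.24, SE 0.24, adjusted p = 0.678 in bladder, limma). Gene-level TPM of a whole organ includes other cell types and exons outside the deleted part, so these values are a weak check of the genotype labels. The summed TPM of 6 smooth muscle markers was 7366 to 8103 in Ctrl colon against 4838 to 5668 in Y/T KO colon, and 34390 to 44890 in Ctrl bladder against 16240 to 29840 in Y/T KO bladder. *Epcam* and other markers of colon epithelium were abundant in colon (summed TPM 8574 to 10590) and low in bladder (201 to 263), and urothelial markers were abundant in bladder (4335 to 5715) and low in colon (18.7 to 31.5). *Muc2*, a defining goblet cell gene and one of the 8 colon epithelium markers, was nearly absent from every library (at most 0.918 TPM). The reason was not tested, and a single gene does not tell whether goblet cells were present.

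*Saa1*, the main acute-phase member, was close to 0 in Ctrl colon and among the most abundant transcripts of Y/T KO colon. In Ctrl colon it was at 0.0282 TPM in mouse 788, 0.0323 TPM in mouse 786, and 0.0381 TPM in mouse 787. In Y/T KO colon it was at 2085 TPM in mouse 759, 4208 TPM in mouse 783, and 5284 TPM in mouse 780 (3859 ± 1628, SD, n = 3). All Y/T KO colon libraries were high and all Ctrl colon libraries were low, with no overlap, and the Y/T KO libraries differed from each other by 2.53 times. *Saa1* ranked 44th in mouse 759, 11th in mouse 783, and 9th in mouse 780 among all genes by TPM, and made up 0.209%, 0.421%, and 0.528% of the library. Among the 17500 genes tested in colon, 0.137% were called at an adjusted p under 0.05, and 7.52% had all Y/T KO libraries above all Ctrl libraries, as *Saa1* and *Saa2* had. Of the 4 members, *Saa1*, *Saa2*, and *Saa3* passed the filter of at least 0.5 TPM in 3 of the 6 colon libraries, and *Saa1* and *Saa2* passed it only through the Y/T KO libraries. RNA of whole tissue cannot tell more cells that make a transcript from more of it per cell.

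In bladder *Saa1* stayed low in both genotypes. Ctrl mice 784, 785, and 788 had 0.0566, 0.0625, and 0.0357 TPM. Y/T KO mice 782, 783, and 780 had 0.0758, 1.77, and 0.271 TPM. All Y/T KO libraries were above all Ctrl libraries, by little in mouse 782 and by more in mouse 783. The exact permutation test gave a two-sided p of 0.1, the smallest that 3 against 3 libraries can give over 20 arrangements. *Saa1* was below the filter in bladder, and of 5852 genes below it with values above 0 in at least 3 libraries, 5.4% had all Y/T KO libraries above all Ctrl libraries. The order of the groups was thus Y/T KO colon, Y/T KO bladder, Ctrl bladder, and Ctrl colon, and the last pair overlapped.

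**Figure D1:**
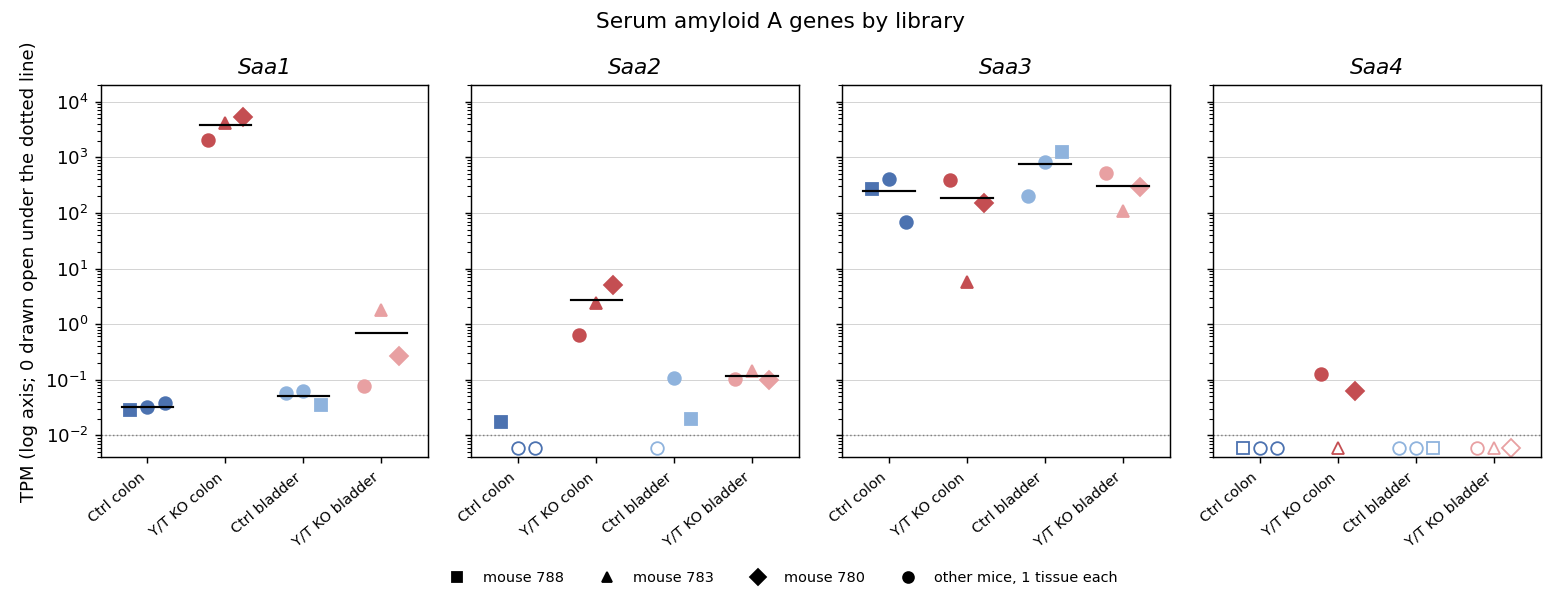
TPM on a log axis of the 4 members in the 12 libraries, by tissue and genotype, with marker shapes for the 3 mice that gave both tissues. Lines are group means where every library is above 0, and open symbols under the dotted line are libraries at 0. *Saa1* and *Saa2* stand high in the 3 Y/T KO colon libraries, *Saa3* is present in all 12 libraries and lowest (5.75 TPM) in Y/T KO colon mouse 783, and *Saa4* is above 0 in 2 libraries.

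The reads behind these levels were few outside Y/T KO colon. A read pair placed whole on a gene covers 152 bases, the most frequent amount in the low values (3121 of 49532). By this measure *Saa1* held 124, 144, and 152 aligned bases in Ctrl colon, about 1 read pair in each library, against 2605771, 3942762, and 5666492 aligned bases in Y/T KO colon. In bladder it held 224, 228, and 139 aligned bases in Ctrl and 302, 1488, and 1020 in Y/T KO mice 782, 783, and 780. Summed over 3 libraries each and rounded up to whole pairs, Y/T KO colon held 80363 read pairs and Ctrl colon held 3. The ratio per gigabase was 28320, and it rests on those 3 read pairs. In bladder 19 read pairs stood against 4, a ratio per gigabase of 5.08 (exact 95% interval 1.69 to 20.5). Without mouse 783, the library with the most, 9 stood against 4, a ratio of 3.37 (0.939 to 15.0). These intervals cover counting error only and not the spread between mice. Placed on the spliced mRNA, 3 read pairs would give 0.373 to 0.584 TPM of *Saa1* depending on the library, above the value of all 6 Ctrl libraries.

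TPM and read pairs gave different folds because TPM divides by transcript length. Dividing aligned bases by FPKM and by the gigabases of the library gives the length that StringTie used. For *Saa1* this length was 2446 bases in all 6 Ctrl libraries and in Y/T KO bladder mice 782 and 780, which is the length of the single-exon *Saa1* transcript annotated as a retained intron. It was 623, 624, and 628 bases in Y/T KO colon and 656 bases in Y/T KO bladder mouse 783, close to the 609 bases of the spliced *Saa1* mRNA. The ratio of mean TPM between Y/T KO and Ctrl colon was accordingly 117400, above the 28320 from read pairs. In Y/T KO bladder, mouse 783 was at 1.77 TPM and mouse 780 at 0.271 TPM, while their read pairs per gigabase were 3.49 and 2.0. *Saa2* had a length of 2443 bases, that of its own retained-intron transcript, in 4 of the 9 libraries above 0 and 719 to 923 bases in the others. *Saa3* had 555 to 568 bases in all 12 libraries, near the 555 bases of its spliced mRNA.

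**Figure D2:**
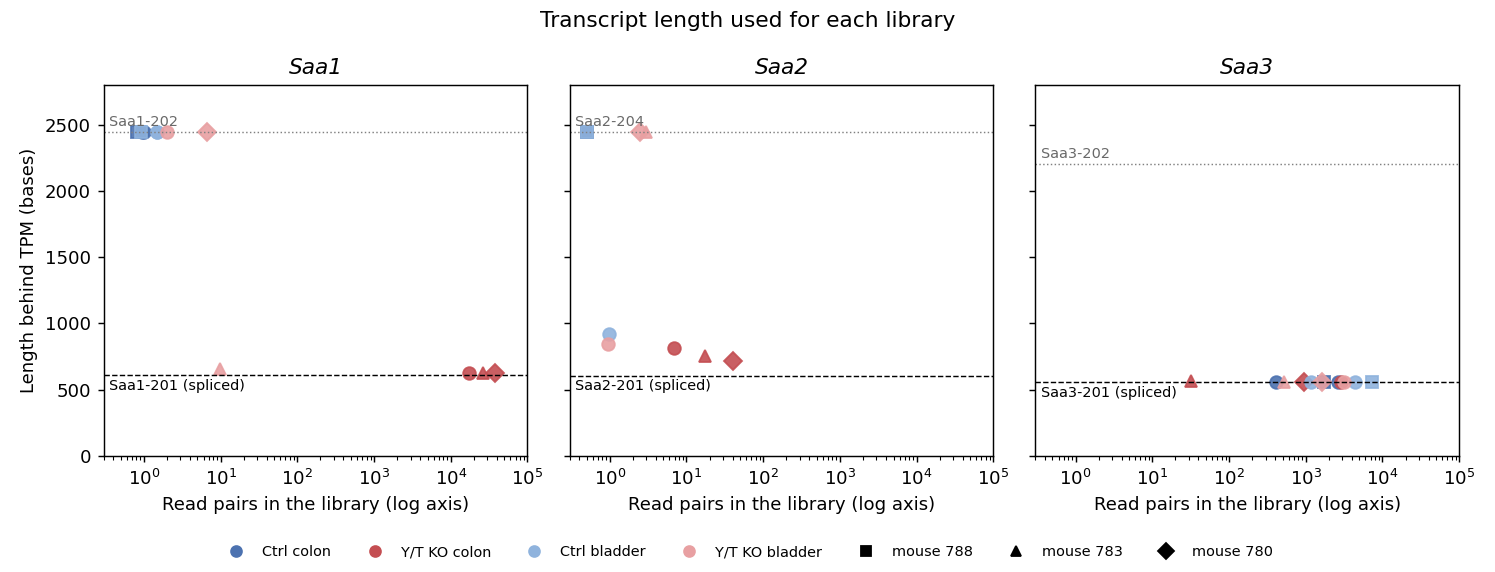
Length behind the TPM value of each library (bases) against the read pairs on the gene (log axis) for *Saa1*, *Saa2*, and *Saa3*, with lines at a spliced and a longer annotated transcript. *Saa1* lies at 2446 bases in every library with few read pairs except Y/T KO bladder mouse 783 (656 bases), and near the spliced mRNA in Y/T KO colon. *Saa3* lies at the spliced length throughout.

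*Saa2*, the second acute-phase member, showed the pattern of *Saa1* at a far lower level. In Ctrl colon it was at 0.0174 TPM in mouse 788 and listed at 0 in mice 786 and 787. In Y/T KO colon it was at 0.636 TPM in mouse 759, 2.36 TPM in mouse 783, and 5.00 TPM in mouse 780. The Y/T KO colon libraries had the same order as for *Saa1* and did not overlap with Ctrl. Summed and rounded up in the same way, 65 read pairs in Y/T KO colon stood against 1 in Ctrl colon, a ratio per gigabase of 68.7. The 1 in Ctrl colon stands for 76 aligned bases in mouse 788, or 0.5 of a read pair. *Saa1* exceeded *Saa2* by 3280 times in mouse 759, 1785 times in mouse 783, and 1058 times in mouse 780. In bladder, *Saa2* was listed at 0 in Ctrl mouse 784 and measured 0.109 and 0.0196 TPM in mice 785 and 788. Y/T KO mice 782, 783, and 780 had 0.105, 0.146, and 0.0992 TPM. The bladder groups overlapped (exact permutation test, two-sided p = 0.3). Its bladder libraries held at most 456 aligned bases, or 3 read pairs.

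*Saa4*, the constitutive liver form, was listed at 0 in 10 of 12 libraries. It was above 0 in Y/T KO colon alone, at 0.126 TPM (531 aligned bases) in mouse 759 and 0.0635 TPM (227 aligned bases) in mouse 780, and 3 read pairs would give 0.109 to 0.170 TPM. The pseudogene *Saa-ps*, which lies between *Saa4* and *Saa1*, was listed at 0 in 11 libraries and at 0.803 TPM (386 aligned bases) in Y/T KO colon mouse 783. The genes that flank the cluster were expressed in every library. *Saal1* (serum amyloid A-like 1) measured 4.89 to 5.86 TPM in Ctrl colon against 6.08 to 8.75 TPM in Y/T KO colon, without overlap (log2 difference 0.50, SE 0.21, adjusted p = 0.509, limma). *Hps5*, which serves in the making of lysosome-related organelles, overlapped slightly, at 10.4 to 17.7 TPM in Ctrl colon against 17.5 to 24.8 TPM in Y/T KO colon (0.81, SE 0.22, adjusted p = 0.369, limma). In bladder *Saal1* was higher in Y/T KO by 0.46 (SE 0.15, adjusted p = 0.238, limma) and *Hps5* by 0.39 (SE 0.11, adjusted p = 0.218, limma), both without overlap. Of all genes tested, 15.8% did not overlap in colon and 20.4% in bladder. Neither flanking gene was called in either tissue.

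*Saa3*, the form made outside the liver, was abundant in both tissues of both genotypes and varied widely between mice. Ctrl colon had 266 TPM in mouse 788, 400 TPM in mouse 786, and 68.3 TPM in mouse 787. Y/T KO colon had 396 TPM in mouse 759, 5.75 TPM in mouse 783, and 152 TPM in mouse 780. The colon groups overlapped, and the highest and the lowest Y/T KO library differed by 68.9 times, against 5.85 times in Ctrl colon. The log2 difference between genotypes in colon was -1.42, and 0.39 without Y/T KO mouse 783. In bladder, Ctrl mice 784, 785, and 788 had 198, 807, and 1265 TPM of *Saa3*. Y/T KO mice 782, 783, and 780 had 525, 110, and 286 TPM. The bladder groups overlapped as well, and their difference did not pass the test (log2 difference -1.20, SE 0.83, adjusted p = 0.552, limma, with 0.302% of 18237 genes called). Leaving out 1 library moved it from -1.97 (without Ctrl mouse 784) to -0.63 (without Y/T KO mouse 783), uncalled throughout. Between the Ctrl tissues *Saa3* was lower in colon (245 ± 167 TPM, SD, n = 3) than in bladder (757 ± 536 TPM, n = 3), and this difference did not pass the test either (-1.33, SE 0.86, adjusted p = 0.242, limma), where 50.7% of 18445 genes were called. Leaving out 1 library moved this difference from -2.11 (without Ctrl bladder mouse 784) to -0.61 (without Ctrl colon mouse 787), uncalled throughout. By mean TPM the order was Ctrl bladder, Y/T KO bladder (307 ± 208), Ctrl colon, and Y/T KO colon (185 ± 197), and every pair of neighbors overlapped.

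*Saa3* did not follow *Saa1* within the Y/T KO colon libraries. Mouse 783 had the lowest *Saa3* in its genotype in both tissues while its colon *Saa1* was at 4208 TPM, so that *Saa1* exceeded *Saa3* by 732 times there, against 5.27 times in mouse 759 and 34.7 times in mouse 780. In the mice that gave both tissues, *Saa3* in colon was 0.211 of its bladder level in Ctrl mouse 788, 0.0521 in Y/T KO mouse 783, and 0.532 in Y/T KO mouse 780. *Saa1* in colon was 0.789 of its bladder level in Ctrl mouse 788, from 0.81 of a read pair in colon and 0.91 in bladder. By TPM it exceeded its bladder level by 2379 times in mouse 783 and 19510 times in mouse 780. The length behind TPM in bladder was 656 bases in mouse 783 and 2446 bases in mouse 780. Read pairs per gigabase in colon and bladder were 8882 and 3.49 in mouse 783, and 11560 and 2.0 in mouse 780.

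The genes most like *Saa3* were *Nemp2*, *6720427I07Rik*, *Gm9165*, *S100a9*, and *S100a8*, by Pearson's r of log2(rescaled TPM + 0.1) over 12 libraries among 19772 genes. The r values were 0.92, 0.91, 0.90, 0.90, and 0.90, and the points share libraries, tissues, and in 3 cases mice. *S100a8* and *S100a9* encode the subunits of calprotectin, a protein of neutrophils and inflamed epithelia. *S100a9* had 86.8 and 115 TPM in Ctrl bladder mice 788 and 785, where *Saa3* was highest, and was listed at 0 in Y/T KO colon mouse 783, where *Saa3* was lowest. Without these extremes of *Saa3* (Y/T KO colon mouse 783 and Ctrl bladder mouse 788), r was 0.59 for *S100a9*, 0.62 for *S100a8*, and 0.79 for *Nemp2*, and Spearman's rho over all 12 libraries was 0.66, 0.65, and 0.91. *S100a9* had 93.5 TPM in Y/T KO colon mouse 780, where *Saa3* was at 152 TPM, against 13.9 and 30.1 TPM in the libraries with the nearest *Saa3* levels (Y/T KO bladder mouse 783 and Ctrl bladder mouse 784). None of the 5 genes was among the 5 most like *Saa3* in the 6 colon libraries alone, where their r was 0.88 to 0.98 and other genes reached higher values.

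**Figure D3:**
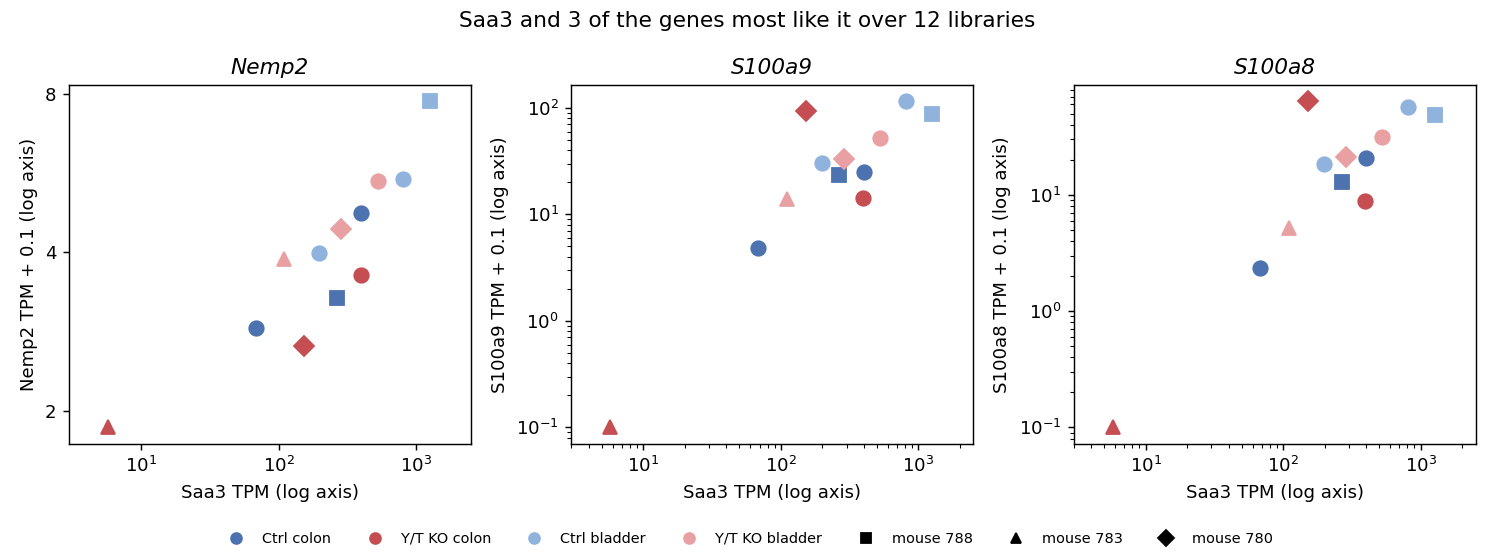
TPM of *Saa3* (log axis) against TPM + 0.1 (log axis) of *Nemp2*, *S100a9*, and *S100a8* in the 12 libraries, colored by tissue and genotype. Y/T KO colon mouse 783 lies alone at the lower left, with *Saa3* at 5.75 TPM and *S100a9* and *S100a8* listed at 0, and Y/T KO colon mouse 780 lies above the libraries with *Saa3* near its own level for *S100a9* (93.5 TPM) and *S100a8* (63.9 TPM).

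The genes most like *Saa1* over the 12 libraries were *1810008I18Rik* (r = 0.98), *Gm29791* (0.96), *Saa2* (0.95), *Ptrhd1* (0.93), and *Gm7266* (0.93). The Y/T KO colon libraries stand apart from the other 9, and that split belongs to the comparison by which the family was chosen. *1810008I18Rik*, a long noncoding RNA also on chromosome 7, had 1.83, 2.51, and 4.25 TPM in Y/T KO colon mice 759, 783, and 780, and under 0.1 TPM in the other libraries. *Gm29791*, a processed pseudogene on chromosome 7, had 1.27, 0.542, and 1.28 TPM in these libraries and 0.308 TPM in Y/T KO bladder mouse 783, and was listed at 0 elsewhere. The longest run of bases shared with spliced *Saa1* was 10 for *1810008I18Rik* and 14 for *Gm29791*, shorter than a 76-base read. For *Saa2* it was 99, longer than such a read. Reads of *Saa1* could thus have been placed on *Saa2*, and their part in this likeness was not tested. *Saa2* shared *1810008I18Rik*, *Saa1*, and *Ptrhd1* with this list and added *Syt12* (r = 0.93) and *Nsun2* (0.93). None of these genes was among the 5 most like *Saa1* or *Saa2* in the 6 colon libraries alone. Their r there was still 0.95 to 0.99, and other genes reached higher values over these few points. The same split of genotypes remains in those libraries.

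The other genes of the acute-phase response were examined in 6 lists of 108 genes in all, by role. At an adjusted p under 0.05 none of the 84 tested in colon and none of the 82 tested in bladder was called by limma. Of all genes tested, 0.137% were called in colon and 0.302% in bladder, so few or no calls would arise at that share in lists of this size. At an unadjusted p under 0.05, 8 of 84 in colon (9.52%, 7 higher and 1 lower in Y/T KO) stood against 9.73% of all genes (5.14% higher and 4.59% lower), and 13 of 82 in bladder (15.9%, 2 higher and 11 lower) against 14.8% of all genes (6.64% higher and 8.2% lower). Both total shares were near those of all genes. By direction, the listed genes under this p were mostly higher in colon and mostly lower in bladder, which was not tested. Groups did not overlap for 15.8% of all genes tested in colon and 20.4% in bladder. Most genes named with a test below were picked as the 2 with the lowest p of a list, which favors genes whose groups are separate. The median log2 difference of the listed genes was 0.22 in colon and -0.21 in bladder, against 0.01 and 0.00 over all genes tested.

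Among 26 other acute-phase proteins, 15 were tested in colon (11 higher, 4 lower in Y/T KO, median log2 difference 0.47, lowest adjusted p 0.241, limma). *Serpina3m*, a serine protease inhibitor, had 0.425, 0.194, and 0.219 TPM in Ctrl mice 786, 787, and 788, while Y/T KO mice 759, 783, and 780 had 1.38, 13.7, and 15.0 TPM (log2 difference 4.24, SE 0.88, adjusted p = 0.241, limma). Its relative *Serpina3n* measured 78.8 to 137 TPM in Ctrl colon against 207 to 637 TPM in Y/T KO colon (1.93, SE 0.41, adjusted p = 0.241, limma). Both sets of libraries were separate, with mouse 759 the lowest of its group as for *Saa1*, and *Serpina3n* passed the test only where all 12 libraries were fitted together (adjusted p = 0.0402, limma). In bladder, 17 were tested (10 higher, 7 lower, median 0.16, or -0.035 without Ctrl mouse 788), led by the inter-alpha-trypsin inhibitor gene *Itih4*, which measured 1.69 to 3.42 TPM in Ctrl against 9.34 to 12.2 TPM in Y/T KO (1.95, SE 0.30, adjusted p = 0.0812, limma), and by complement factor *Cfb*, whose groups overlapped (-0.72, SE 0.25, adjusted p = 0.278, limma). The list held both absent and abundant genes, chosen here after their values were seen. The fibrinogen genes *Fga* and *Fgb* and the pentraxin gene *Apcs* were listed at 0 in all 12 libraries, and *Crp* was at most at 0.116 TPM. The complement gene *C3* was at 120 to 1807 TPM, haptoglobin (*Hp*) at 10.99 to 403 TPM, the lipopolysaccharide-binding protein gene *Lbp* at 3.76 to 175 TPM, ceruloplasmin (*Cp*) at 10.2 to 68.2 TPM, and *Orm1* at 0 to 31.4 TPM over the 12 libraries.

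Of 14 cytokines that can induce the family, 7 were tested in colon (median 0.39) and 8 in bladder (median -0.61). The colon median turned to -0.26 without Y/T KO mouse 780, and the bladder median ran from -1.19 (without Ctrl mouse 784) to -0.20 (without Ctrl mouse 785). *Il18* measured 591 to 671 TPM in Ctrl colon against 448 to 535 TPM in Y/T KO colon (log2 difference -0.27, SE 0.14, adjusted p = 0.583, limma). The genotypes did not overlap for *Il18*. *Il1b*, a main inducer of serum amyloid A, measured 2.11 to 5.32 TPM in Ctrl colon, while Y/T KO mice 759, 783, and 780 had 8.85, 4.07, and 39.1 TPM (1.58, SE 0.83, adjusted p = 0.596, limma), and in bladder it measured 3.75 to 27.9 TPM in Ctrl against 1.91 to 4.91 TPM in Y/T KO (-1.79, SE 0.75, adjusted p = 0.344, limma). The *Il1b* difference was 0.68 in colon without Y/T KO mouse 780 and 2.31 without mouse 783, and in bladder -2.60 without Ctrl mouse 784 and -1.18 without Ctrl mouse 785. Both *Il1b* comparisons overlapped, as did *Lif*, a cytokine of the interleukin-6 family, in bladder (-0.81, SE 0.45, adjusted p = 0.444, limma). *Il17a* was listed at 0 in all 12 libraries. *Il22* was listed at 0 in 10, and the exceptions were both Y/T KO colon libraries, at 0.0679 and 0.66 TPM. *Il17a* and *Il22* are named here after their values were seen.

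All 17 receptor and signaling genes were tested in both tissues (median 0.06 in colon, or -0.034 without Ctrl mouse 787, and -0.18 in bladder). The tumor necrosis factor receptors *Tnfrsf1a* (0.32, SE 0.19, adjusted p = 0.627, limma) and *Tnfrsf1b* (0.44, SE 0.28, adjusted p = 0.632, limma) overlapped between genotypes in colon. In bladder the interleukin-17 receptor subunit *Il17rc* measured 31.3 to 34.8 TPM in Ctrl against 20.5 to 26.1 TPM in Y/T KO (-0.46, SE 0.11, adjusted p = 0.158, limma), and the interleukin-22 receptor subunit *Il22ra1* measured 2.87 to 4.42 TPM and 0.747 to 1.72 TPM (-1.34, SE 0.36, adjusted p = 0.188, limma). Neither pair of groups overlapped in bladder, where 20.4% of all genes tested did not overlap.

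Of 19 transcription factors and feedback genes, 16 of 19 tested were higher in Y/T KO colon (median 0.24), and 13 of 17 tested were lower in Y/T KO bladder (median -0.28), with none called. *Zfp36*, whose product speeds the decay of cytokine mRNAs, measured 41.5 to 51.02 TPM in Ctrl colon against 56.0 to 62.2 TPM in Y/T KO colon (0.36, SE 0.13, adjusted p = 0.464, limma). The NF-κB subunit gene *Relb* measured 34.5 to 40.8 TPM in Ctrl colon against 43.8 to 51.5 TPM in Y/T KO colon (0.35, SE 0.15, adjusted p = 0.520, limma). In bladder *Bcl3*, a nuclear partner of NF-κB, measured 17.2 to 21.6 TPM in Ctrl against 8.36 to 10.2 TPM in Y/T KO (-1.04, SE 0.15, adjusted p = 0.0625, limma), and the subunit gene *Nfkb2* measured 24.4 to 30.4 TPM and 11.9 to 17.7 TPM (-0.96, SE 0.18, adjusted p = 0.106, limma). The genotypes were separate for each of these in the tissue named, and these genes were picked by their low p. In the whole list, groups did not overlap for 3 of 19 tested in colon and 3 of 17 in bladder. The shares of all genes tested were 15.8% and 20.4%.

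Of 16 receptors and lipoprotein partners of serum amyloid A, 14 were tested in each tissue (median 0.10 in colon and -0.09 in bladder, or 0.0090 in bladder without Ctrl mouse 788). *Apoa2*, an apolipoprotein of high-density lipoprotein, was listed at 0 in Ctrl colon mice 786 and 787 and had 1.67 TPM in Ctrl mouse 788, while Y/T KO mice 759, 783, and 780 had 1.52, 4.27, and 3.31 TPM (3.48, SE 1.14, adjusted p = 0.447, limma). It passed the test only without Ctrl mouse 788 (4.87, adjusted p = 0.0385, limma), and *Apoe* overlapped between genotypes (0.35, SE 0.20, adjusted p = 0.609, limma). In bladder the formyl peptide receptor genes *Fpr1* (1.55 to 4.58 TPM in Ctrl against 0.531 to 0.814 TPM in Y/T KO, -1.92, SE 0.42, adjusted p = 0.147, limma) and *Fpr2*, which encodes a receptor of serum amyloid A (1.66 to 3.88 TPM and 0.921 to 1.62 TPM, -1.21, SE 0.38, adjusted p = 0.235, limma), were separate between genotypes without being called.

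Of 16 genes of the epithelial response to interleukin-22 and interleukin-17, 12 were tested in colon (median 0.54) and 9 in bladder (median -1.10). The colon median ran from -0.036 (without Y/T KO mouse 780) to 1.37 (without Y/T KO mouse 783). The bladder median ran from -1.78 (without Ctrl mouse 784) to -0.40 (without Ctrl mouse 785). With all 12 libraries in 1 fit the bladder median was 0, over another set of genes. The filter then also admitted genes listed at 0 in every bladder library, such as *Pla2g2a*, whose bladder difference was 0. *Pla2g2a*, a secreted antibacterial phospholipase, measured 16.0 to 24.7 TPM in Ctrl colon against 33.1 to 85.7 TPM in Y/T KO colon (1.30, SE 0.38, adjusted p = 0.400, limma), and *Pigr*, the receptor that carries antibodies across epithelia, measured 2076 to 2163 TPM and 1428 to 1738 TPM (-0.37, SE 0.15, adjusted p = 0.492, limma). Both genes were separate between genotypes in colon, in opposite directions. In bladder the neutrophil chemokine genes *Cxcl5* (-2.18, SE 1.04, adjusted p = 0.393, limma) and *Cxcl2* (-2.48, SE 1.2, adjusted p = 0.395, limma) were lowest in Y/T KO mouse 783, at 0.721 and 0.15 TPM, and the groups overlapped for *Cxcl2* only. Without mouse 783 the differences were -0.93 for *Cxcl5* and -1.53 for *Cxcl2*, and *Cxcl5* was at -2.84 without Y/T KO mouse 782 and *Cxcl2* at -3.56 without Ctrl mouse 784. Mouse 783 also had the lowest *Saa3* in its group.

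**Figure D4:**
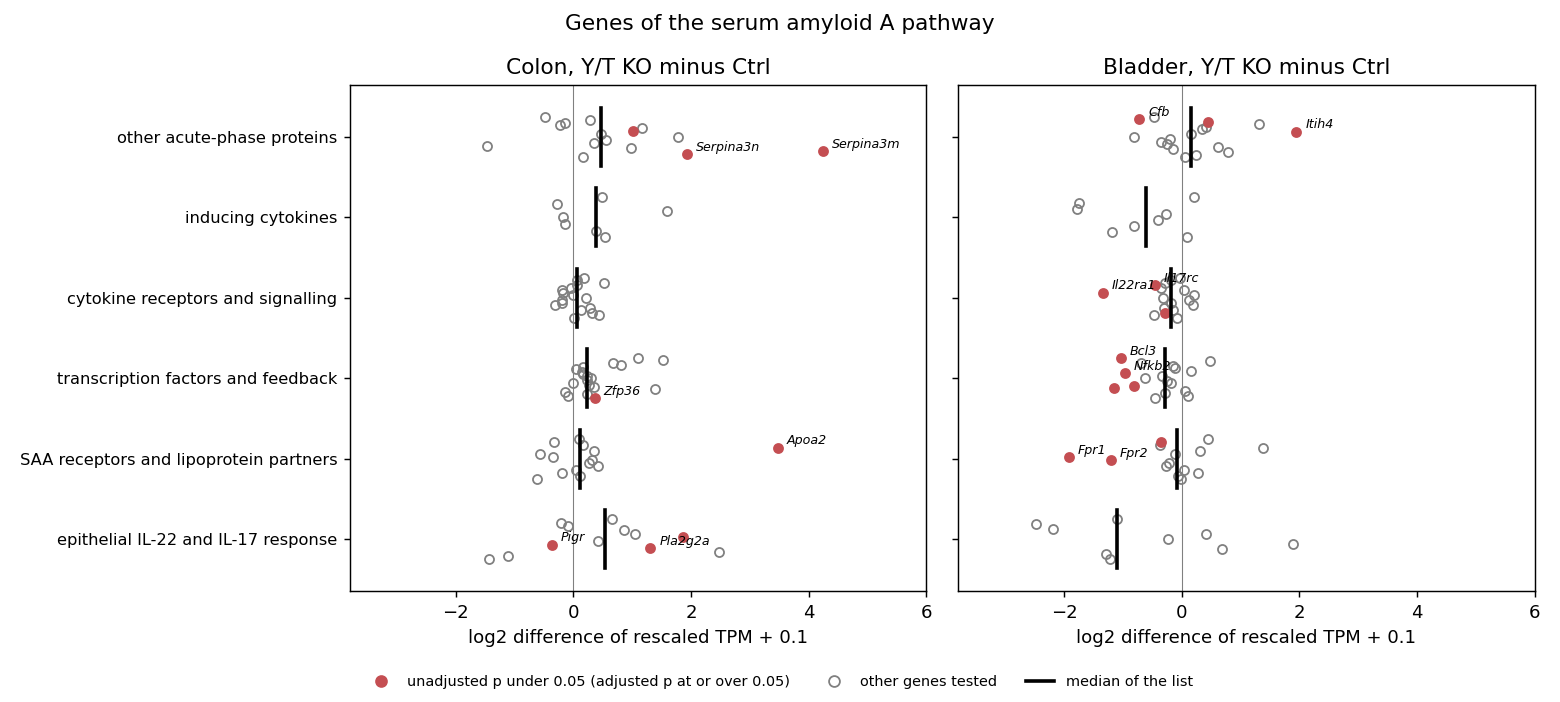
Log2 difference (rescaled TPM + 0.1) between Y/T KO and Ctrl of each tested gene in 6 lists, in colon and bladder, with the median of each list as a bar. Filled points have an unadjusted p under 0.05, and those among the 2 lowest of a list are named. No gene reached an adjusted p under 0.05. Medians run from 0.06 to 0.54 in colon and from -1.10 to 0.16 in bladder, and several turn sign with 1 library left out.

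Between the Ctrl tissues, 25.4% of all genes tested were called higher and 25.3% lower in colon (4694 and 4665 genes, or 3277 and 5886 with TPM as deposited). Among the other acute-phase proteins, 0 were called higher and 10 lower of 15 tested, and among the receptors and lipoprotein partners 2 higher and 7 lower of 14. The epithelial response genes went the other way, with 7 higher and 2 lower of 14. The inducing cytokines had 1 higher and 1 lower of 9, the receptor and signaling genes 3 higher and 5 lower of 17, and the transcription factors 5 higher and 1 lower of 19. All these calls are at an adjusted p under 0.05 (limma).

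Markers of cells that can make serum amyloid A were set beside these levels, and their part in the results was not tested. Of 7 hepatocyte genes, *Fgb* was listed at 0 in all 12 libraries and *Alb* was at most at 4.33 TPM, and their summed TPM was 105 to 155 in Ctrl colon and 99.4 to 155 in Y/T KO colon, nearly all of it *Ttr*. All 7 macrophage genes were tested, and their sum was 424 to 583 TPM in Ctrl colon against 554 to 823 TPM in Y/T KO colon, with 7 of 7 higher and none called (limma), where 0.137% of all genes were called. At an unadjusted p under 0.05, 3 of 7 were higher (limma), against 5.14% of all genes. All Y/T KO colon libraries were above all Ctrl colon libraries for 3 of 7, against 7.52% of all genes. In bladder the macrophage sum was 1061 to 1406 TPM in Ctrl against 887 to 1277 TPM in Y/T KO, lowest in mouse 783 as *Saa3* was. In colon the same mouse went the other way, with a macrophage sum of 760 TPM, above all Ctrl colon libraries, beside the lowest *Saa3* of the 12 libraries. The sum of 8 neutrophil genes, which include *S100a8* and *S100a9*, was 58.8 to 198 TPM in Ctrl bladder against 32.2 to 102 TPM in Y/T KO bladder, again lowest in mouse 783, while *Elane* was listed at 0 in every library. In colon the neutrophil sum was 135 to 195 TPM in Ctrl against 115 to 348 TPM in Y/T KO, with *Ly6g* alone at 112 to 201 TPM. The sum of 6 adipocyte genes was 147 to 357 TPM in Ctrl colon against 155 to 179 TPM in Y/T KO colon, and 1872 to 3806 TPM in Ctrl bladder against 3174 to 4963 TPM in Y/T KO bladder, highest in mouse 783, where *Saa3* was lowest.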

How the data were processed

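RNA sequencing of 12 libraries was analyzed from gene tables made by StringTie. Per the labels the authors used HISAT2 and StringTie with GRCm38, and they deposited 3 values for each gene and library. TPM from the authors is scaled to transcript length and to a common total per library. FPKM from the authors is scaled to transcript length and to mapped fragments. The deposited coverage is the mean read depth over a gene, a signal that was multiplied by the union exon length of GENCODE release M21 to give aligned bases. The authors also used DESeq2 on counts, which were not used here. Rows of a gene ID were summed.

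Groups came from the labels. TPM was divided by median-of-ratios size factors, and log2(TPM + 0.1) was compared with limma 3.58.1 in R 4.3.3 (trend and robust options) for genes reaching 0.5 TPM in 3 or more of 6 libraries, with Benjamini-Hochberg adjustment over all genes tested. A pseudocount understates the change of low genes. Members below this filter in bladder were compared by two-sided exact permutation tests. Ratios of read pairs in bladder have exact binomial 95% intervals, and the pair of 152 bases was inferred from the coverage. Python 3.11.15 was used with pandas 2.3.3 and with scipy 1.17.1. The fit was tested on simulated data. All intervals and floors cover counting error only.

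The members, gene lists, and naming rule were chosen with earlier results of these data known. Named genes were the members, their flanking genes, *Yap1*, *Wwtr1*, the 5 genes with the highest Pearson's r with a member, and, in each list and tissue, the genes called and the 2 with the lowest p. Mice 788, 783, and 780 gave both tissues, so their numbers pair libraries. The deviations of their libraries from the group means had correlations of -0.01, 0.07, and 0.04. Alternatives changed the pseudocount, filter, scaling, unit, fit, and libraries.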

Additional observations from a re-analysis of the deposited data

Results flagged for a closer look

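*Relb*, an NF-κB subunit gene, was marked because its genotype difference went opposite ways in the tissues, with every Y/T KO library above every Ctrl library in colon and below every Ctrl library in bladder. In colon, Ctrl mice 786, 787, and 788 had 34.5, 37.9, and 40.8 TPM. Y/T KO mice 759, 783, and 780 had 45.9, 51.5, and 43.8 TPM. In bladder, Ctrl mice 784, 785, and 788 had 18.1, 25.1, and 23.4 TPM. Y/T KO mice 782, 783, and 780 had 15.9, 10.5, and 11.8 TPM. The log2 difference was 0.35 in colon and -0.81 in bladder, and the difference between tissues was 1.138 (SE 0.24, interaction term over 12 libraries). It did not pass the adjustment over 19773 genes (adjusted p = 0.154, limma). In colon alone the unadjusted p of *Relb* was 0.0527 (limma). Groups did not overlap, in either direction, for 15.8% of all genes tested in colon and 20.4% in bladder. The share of genes separate in opposite directions in the tissues was not counted.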

How the results depend on the processing

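Each result was computed again under other settings. With 1 of 6 libraries left out, the number of genes called ran from 5 to 63 in colon (24 with all), from 11 to 51 in bladder (55 with all), and from 7054 to 9128 between the Ctrl tissues (9359 with all), and of the listed pathway genes 0 to 2 were called in colon (*Apoa2* and *Cebpa*, without Ctrl mouse 788) and 0 in bladder. The number called in colon was 5 without Ctrl mouse 786 or Y/T KO mouse 783 or 780, and 63 without Y/T KO mouse 759. In colon 6 genes were called without the filter, 69 with all 12 libraries in 1 fit, and 42 at an adjusted p under 0.1, where bladder had 140 and 2 pathway genes (*Bcl3* and *Itih4*). The mouse as a replicate block in the fit of all 12 libraries left 69 genes called in colon and 1 pathway gene (*Serpina3n*), the same counts as without the pairing, moved the genes called from 65 to 61 in bladder and from 9963 to 10028 between the Ctrl tissues, and ended the call of *Yap1* in bladder (adjusted p = 0.0496 to 0.0504, limma). With TPM as deposited, 3277 genes were called higher and 5886 lower in Ctrl colon than in Ctrl bladder, against 4694 and 4665 after rescaling, with a median of all genes of -0.23 against 0.03, and *Saa3* stayed uncalled.

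The log2 difference of *Saa1* in colon was 14.74, and 12.73 or 11.77 with a pseudocount of 0.5 or 1 TPM, 13.94 with FPKM, and 14.45 to 15.13 with a library left out. That of *Saa2* was 4.32, and 2.38 or 1.68 with these pseudocounts, 6.10 from read pairs (a setting added after seeing the data), and 3.68 to 5.08 with a library left out. That of *Saa3* in colon was -1.42 and ran from -2.66 to 0.39 with a library left out, turning positive without Y/T KO mouse 783. In bladder *Saa1* was at 1.72 (0.74 without Y/T KO mouse 783 to 2.48 without mouse 782) and *Saa2* at 0.67 (0.45 to 0.98), the latter 0.19 or 0.10 with the larger pseudocounts and 1.90 from read pairs. *Wwtr1* in bladder ran from -0.017 (without Ctrl mouse 784) to 0.43 (without Ctrl mouse 785). Depth limits *Saa2*, *Saa4*, and *Saa1* outside Y/T KO colon, where few read pairs lie behind each value.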
